A study of Mus musculus with 8 samples.

Results

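The genes described here are 39 targets and partners of ATF4 in the response of cells to a shortage of amino acids, measured by RNA-seq in cultures of mouse spermatogonia, the undifferentiated germ cells of the testis. They were chosen by name as a list of known integrated stress response factors, serine and folate enzymes and amino acid transporters, with earlier results of these data known. The names matched 40 of 55421 rows of the count table, because *Ddit3* has a second row that lies inside the first and holds no read. After low counts were filtered out, 38 of the 39 genes were among 20477 tested. *Fgf21*, a secreted metabolic hormone, was left untested with at most 6 reads in any library. Each of 4 groups held 2 libraries, which the study describes as independent biological replicates. Testicular cells of pups aged 6 days (C57BL/6XDBA/2, which the study describes as an F1 hybrid background) had given rise to the cultures, and all groups grew on irradiated mouse embryonic fibroblasts as feeder cells, so a library can hold feeder RNA. Vehicle cells (Veh) stayed in complete spermatogonial medium, while the RA group was given 100 nM retinoic acid in it, the vitamin A derivative that drives spermatogonial differentiation. Nutrient restriction (NR) used a medium of 10% complete medium and 90% Earle's balanced salt solution (EBSS). This dilutes amino acids together with other components of the complete medium, growth factors included. NRRA cells received 100 nM retinoic acid in that diluted medium, and treatment lasted 2 days in all groups.

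When amino acids run short, uncharged tRNAs activate the kinase GCN2 (*Eif2ak4*), which phosphorylates the initiation factor eIF2 and lowers protein synthesis. The *Atf4* mRNA is then translated more efficiently, and ATF4 protein, paired with C/EBP proteins, switches on genes for amino acid synthesis and uptake, for tRNA charging and export, and for feedback on the pathway. ATF4 is thus controlled largely at translation, and its mRNA level does not report its protein. Many of its targets also serve anabolic growth through mTORC1 and are high in dividing cells. Which of these mRNAs changed with RA, with nutrient restriction and with both is the question the 4 groups allow.

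A response element known from several of these genes, which ATF4 and C/EBP proteins bind together, reads TGATGNAA, where N is any base. Searched on both strands, it stood in the promoter windows of 10 of the 33 members that have a RefSeq window (30.3%), against 1219 of 27025 genes (4.51%). The members were listed as known targets of ATF4, and the element is known from several of them. The higher share is therefore not independent of that choice and is given as a description only. A window ran from 250 bases before to 50 bases after the transcription start, and 3.97% of all windows of that length held the letters. The members concerned were *Asns*, *Atf3*, *Chac1*, *Fgf21*, *Nupr1*, *Pycr1*, *Slc1a4*, *Slc7a11*, *Trib3* and *Vldlr*. Stretches of 60 bases around the match are given for 7 of them. The same letters stand near the start of genes called in opposite directions under nutrient restriction: 5 called higher, followed by *Asns* and *Slc7a11*, called lower. The calls of *Chac1* and *Asns* were each lost in fits that left out 1 library, with values given below. Each stretch is written 5′ to 3′ on the strand of its gene with the matched letters in capitals, from the RefSeq table for GRCm38.p6. TTGCATCA and TTACATCA are matches on the opposite strand.
Pycr1, chr11:120643818-120643877, minus strand: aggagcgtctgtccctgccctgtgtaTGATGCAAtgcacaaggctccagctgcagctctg
Nupr1, chr7:126625547-126625606, minus strand: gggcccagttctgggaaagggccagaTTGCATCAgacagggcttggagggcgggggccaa
Slc1a4, chr11:20332684-20332743, minus strand: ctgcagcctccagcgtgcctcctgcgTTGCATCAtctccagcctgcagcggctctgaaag
Trib3, chr2:152344013-152344072, minus strand: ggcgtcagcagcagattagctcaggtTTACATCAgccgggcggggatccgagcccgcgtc
Chac1, chr2:119351023-119351082, plus strand: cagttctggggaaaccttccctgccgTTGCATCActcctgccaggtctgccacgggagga
Asns, chr6:7693199-7693258, minus strand: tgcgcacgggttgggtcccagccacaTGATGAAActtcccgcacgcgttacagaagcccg
Slc7a11, chr3:50443636-50443695, minus strand: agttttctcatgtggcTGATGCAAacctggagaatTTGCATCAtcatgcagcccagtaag
*Slc7a11* was the member with 2 matches, and in *Trib3* the match lay 14 bases after the start. A match says only that the letters are present and names no bound site.

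Library totals ranged from 19261333 to 30023585 counts. Levels are CPM, read counts scaled to a common library size by TMM, and 1 CPM stood for about 19.2 to 31.1 reads. Differences are log2 fold changes ± standard error (SE), and a gene passed at an adjusted p under 0.05, with edgeR's quasi-likelihood test and Benjamini-Hochberg adjustment over all tested genes. The labelled cell type and treatment were visible in marker genes. All 8 germ cell markers were detected, with summed levels of 917 to 1267 CPM, and 4 retinoid response genes rose at least 2-fold in RA and in NRRA against Veh, *Stra8* by 8.92 ± 0.081 and 9.47 ± 0.080 on the log2 scale. In NR, without added retinoic acid, 2 of these 4 genes also rose, *Stra8* by 3.44 ± 0.14 and *Rec8* by 0.51 ± 0.14. The 15 fibroblast markers summed to 22374 and 22833 CPM in the Veh libraries, 19489 and 18211 with RA, 38136 and 39837 with NR, and 30263 and 29294 with NRRA. None of them was at 0, and 13 rose and 1 fell in NR against Veh, where 7 of the 8 germ cell markers also rose. Of all tested genes, 21.7% were higher and 22.2% lower in NR against Veh. The 10 Sertoli and Leydig cell markers, of which 7 were tested, summed to 125 and 117 CPM with RA and to 53.3 to 61.8 CPM in the other libraries. In these bulk libraries, fewer cells of a type and less RNA per cell cannot be told apart, and the part of feeder and other somatic cells in the members' changes was not tested.

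**Figure D1:**
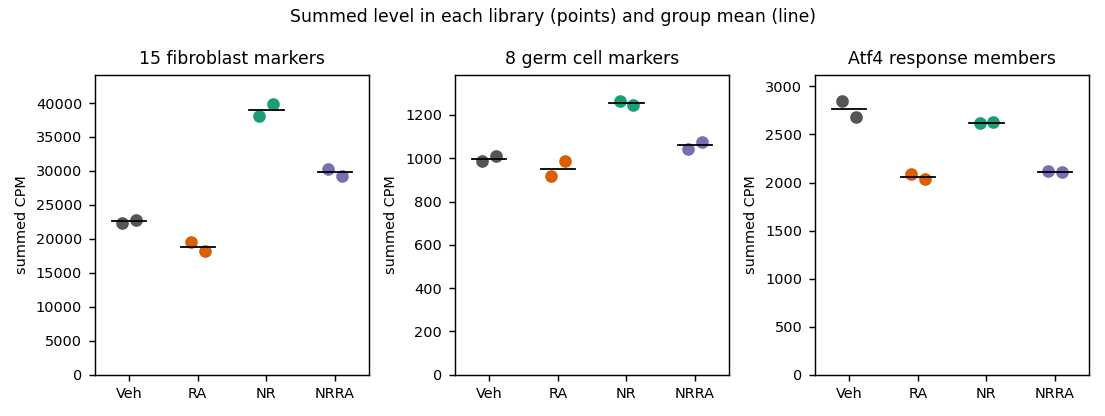
Summed CPM of 15 fibroblast markers, of 8 germ cell markers and of the Atf4 response members, with 1 point per library and a line at the mean of the 2 libraries of each group. The fibroblast sum was highest in both NR libraries (38136 and 39837 CPM). The members' sum, in which members with high levels weigh most, was lower in RA and NRRA (2032 to 2120 CPM) than in Veh and NR (2618 to 2851 CPM).

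The members summed to 2851 and 2683 CPM in the Veh libraries and to 2090 and 2032 with RA. They summed to 2618 and 2629 with NR and to 2120 and 2107 with NRRA, so that every library with retinoic acid was below every library without it. Members with high levels weigh most in this sum, among them *Slc7a5*, with means of 366 CPM in Veh and 144 CPM in RA. RA against Veh lowered 20 of the 38 tested members (52.6%) and raised 2 (5.26%), while 23.4% of all tested genes were lower and 19.8% higher. Nutrient restriction against Veh changed the members in both directions, with 13 higher (34.2%) and 15 lower (39.5%), against 21.7% and 22.2% of all tested genes. NRRA against Veh gave 8 higher (21.1%) and 17 lower (44.7%), against 30.1% and 28.7%. The median log2 fold change of the 38 members was -0.16 with RA, 0.032 with NR and -0.088 with NRRA, while that of all tested genes was -0.019, 0.0057 and 0.030. Changes were mostly small. With at least 2-fold as a further condition, RA gave 0 members higher and 2 lower (4.74% and 2.75% of all tested genes), NR 3 and 1 (5.33% and 2.96%) and NRRA 2 and 5 (9.91% and 6.02%). Scaling by library totals instead of TMM gave 4 members higher and 14 lower in RA, and 12 higher and 13 lower in NRRA. It turned the calls over all tested genes from 4048 higher and 4789 lower to 5540 and 3040 in RA, and from 6171 and 5880 to 7668 and 4488 in NRRA, where it moved their median to 0.14. Without Veh replicate 2 or RA replicate 1, 1 member instead of 2 was higher in RA. These 3 comparisons share the Veh libraries.

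**Figure D2:**
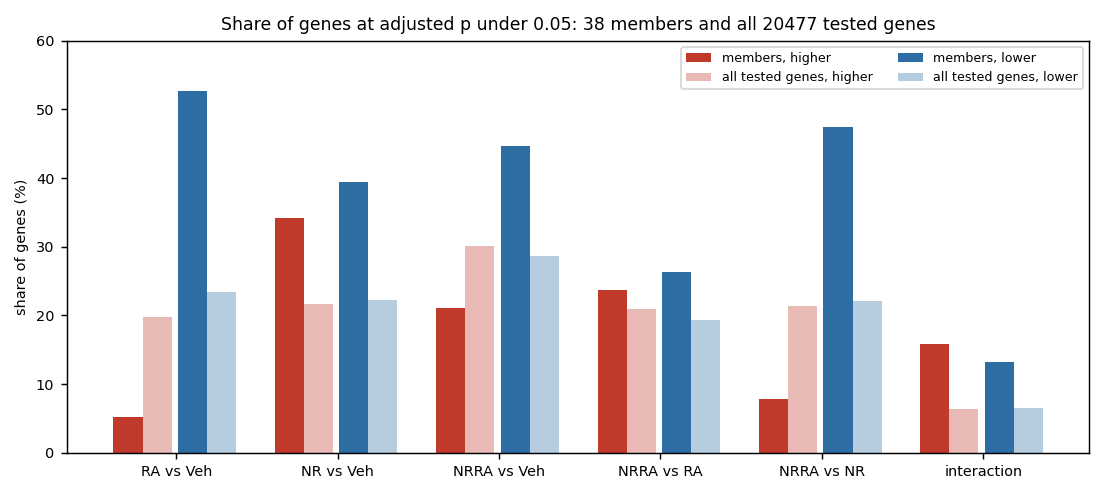
Share of genes (%) at an adjusted p under 0.05 in each comparison, for the 38 tested members (full colour) and all 20477 tested genes (pale), higher in red and lower in blue. In RA vs Veh 52.6% of members and 23.4% of all tested genes were lower, and in NRRA vs NR 47.4% and 22.1%.

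**Figure D3:**
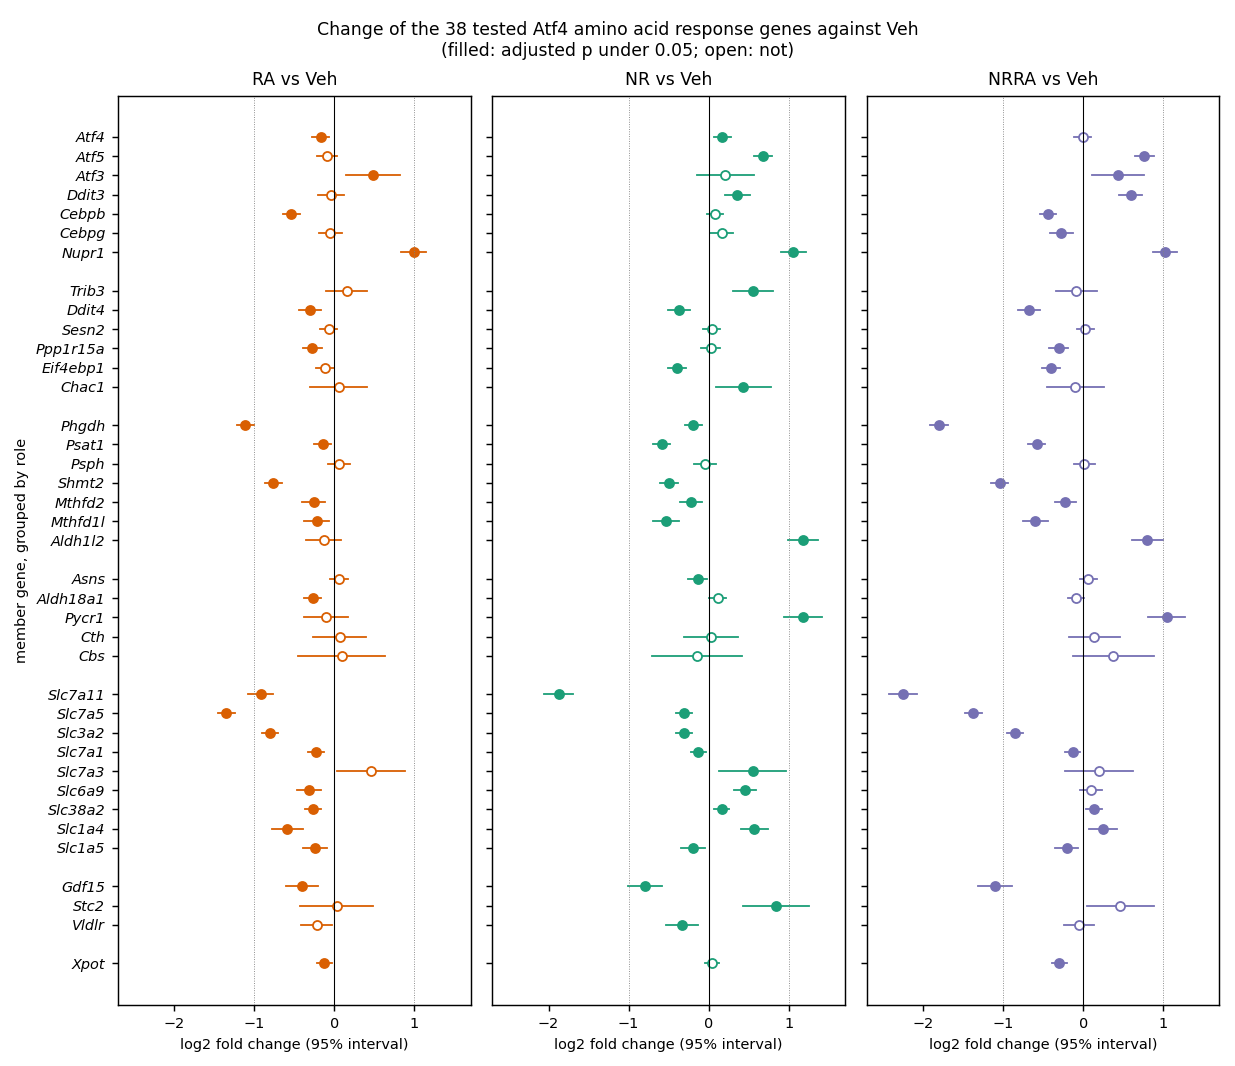
Log2 fold change of each tested member against Veh with its 95% interval, from top to bottom by role (factors, feedback and signalling, serine and folate enzymes, asparagine, proline and cysteine enzymes, transporters, secreted and surface proteins, tRNA export). Filled points passed at an adjusted p under 0.05, and dotted lines mark 2-fold. *Slc7a11* reached -1.87 in NR and -2.25 in NRRA, while *Nupr1* was near 1 in all panels.

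Among the 7 transcription factors, nutrient restriction raised 4 and lowered none, RA raised 2 and lowered 2, and NRRA raised 4 and lowered 2. Of all tested genes, 21.7% were higher and 22.2% lower in NR, 19.8% and 23.4% in RA, and 30.1% and 28.7% in NRRA, so the counts of 2 of 7 in either direction in RA (28.6% each) and of 2 of 7 lower in NRRA were near the background. The largest rises in NR were those of *Nupr1*, a small stress-induced chromatin protein, and *Atf5*, an ATF4-related factor that is also controlled at translation. *Atf4* (ENSMUSG00000042406, chr15:80255184-80257541, GRCm38) stood at 113 and 103 CPM in the Veh libraries, 98.0 and 93.9 with RA, 121 and 121 with NR and 108 and 107 with NRRA. Both NR libraries were above both Veh libraries, both RA libraries were below them, and the NRRA libraries lay within the Veh range. The differences were small, at 0.17 ± 0.051 for NR (adjusted p = 0.0085) and -0.17 ± 0.052 for RA (adjusted p = 0.0096), while the value for NRRA was -0.0051 ± 0.051 with a 95% interval of -0.11 to 0.10. Across the fits that left out 1 library, the NR difference was 0.12 to 0.25. Without Veh replicate 1 the NR difference was 0.25 and the RA difference -0.081, which no longer passed. It was also lost without RA replicate 2, at -0.14.

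*Nupr1* (ENSMUSG00000030717, chr7:126623249-126630861) stood at 22.1 and 21.1 CPM in the Veh libraries, 45.7 and 40.4 with RA, 46.6 and 43.4 with NR and 44.7 and 42.7 with NRRA. Every treated library was well above both Veh libraries, and the 3 treated groups overlapped one another. The log2 fold change against Veh was 0.99 ± 0.075 with RA, 1.06 ± 0.075 with NR and 1.02 ± 0.074 with NRRA (adjusted p = 4.9e-11, 7.2e-12 and 5.4e-12). In restricted medium, RA gave -0.040 ± 0.065 with a 95% interval of -0.17 to 0.093.

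*Atf5* rose by 0.68 ± 0.057 in NR and 0.76 ± 0.056 in NRRA, with -0.094 ± 0.059 in RA (adjusted p = 2e-10, 6.8e-12 and 0.21). *Ddit3*, which encodes the stress factor CHOP, followed the same order with a rise of 0.36 ± 0.075 in NR and 0.59 ± 0.072 in NRRA. Its levels were 22.2 and 23.2 CPM in Veh, 30.7 and 27.7 in NR and 34.8 and 33.6 in NRRA, without overlap between these groups. The C/EBP partners of ATF4 behaved otherwise. *Cebpb* fell, at -0.54 ± 0.052 in RA and -0.44 ± 0.051 in NRRA, with 169 and 153 CPM in Veh, 114 and 108 with RA and 121 and 116 with NRRA, while its difference in NR was 0.077 ± 0.051 (adjusted p = 0.23). *Cebpg*, the usual partner of ATF4 at its targets, passed in NRRA at -0.28 ± 0.071, but only -0.15 without Veh replicate 2, where the call was lost. *Atf3*, an early stress factor at 4.61 and 4.22 CPM in Veh, passed in RA (0.48 ± 0.16) and NRRA (0.44 ± 0.16). The RA call was lost without RA replicate 1 (0.27) or Veh replicate 2 (0.44), the NRRA call without NRRA replicate 1 (0.36) or Veh replicate 2 (0.37), and both with DESeq2. Of the exon bases of *Cebpb*, 20.7% overlap other genes, the largest overlap being with *Tmem189* on the opposite strand. For *Atf5* the share is 4.11%, the largest overlap being with *Nup62*. For the tested *Ddit3* row, 10.9% of exon bases overlap other genes or its second row. The largest overlap is with that second row, which has 105 exon bases against 1713 and so cannot account for the whole share.

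The 6 feedback and signalling genes split in NR into 2 higher and 2 lower, while RA lowered 2 and NRRA lowered 3 with none higher. The 2 of 6 (33.3%) in each direction in NR and the 2 of 6 lower in RA were not far from the 21.7%, 22.2% and 23.4% of all tested genes, and in NRRA 50% were lower against 28.7%. *Trib3*, a pseudokinase that restrains ATF4 and AKT, rose by 0.55 ± 0.12 in NR (adjusted p = 0.0005), from 7.03 and 6.93 CPM in Veh to 11.0 and 9.57, and stood at 6.86 and 6.32 in NRRA. It was lower in NRRA than in NR, at -0.64 ± 0.11. *Chac1*, a glutathione-degrading enzyme, had the same order of groups, with 3.37 and 3.34 CPM in Veh, 4.38 and 4.63 in NR and 3.001 and 3.24 in NRRA. Its rise in NR of 0.43 ± 0.17 (adjusted p = 0.039) was lost when either Veh or either NR library was left out, with values of 0.40 to 0.49, and with DESeq2.

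*Ddit4* (REDD1, an inhibitor of mTORC1) fell, at -0.31 ± 0.066 with RA, -0.37 ± 0.066 with NR and -0.68 ± 0.066 with NRRA, and no NRRA library (36.2 and 37.3 CPM) reached the level of any other library. Without Veh replicate 1 its value in RA was -0.19 and still passed. *Eif4ebp1*, a translation repressor that mTORC1 inactivates, fell, at -0.40 ± 0.056 in NR and -0.40 ± 0.055 in NRRA. *Ppp1r15a* (GADD34), the phosphatase subunit that reverses eIF2 phosphorylation, fell, at -0.27 ± 0.058 in RA and -0.31 ± 0.057 in NRRA and differed by 0.023 ± 0.057 in NR (adjusted p = 0.78). *Sesn2*, a leucine sensor upstream of mTORC1 and a well-known ATF4 target, passed in none of the 6 tests, and its 95% interval in NR was -0.071 to 0.14.

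The 7 serine and folate enzymes were lowered by RA in 5 cases and raised in none, and NR and NRRA each lowered 5 and raised 1. The 5 of 7 (71.4%) lower compare with 23.4% of all tested genes in RA, 22.2% in NR and 28.7% in NRRA. *Phgdh* (ENSMUSG00000053398, chr3:98313170-98339990), the first enzyme of serine synthesis, stood at 181 and 164 CPM in the Veh libraries, 79.0 and 81.0 with RA, 147 and 155 with NR and 49.95 and 48.9 with NRRA. The groups did not overlap, and the order ran from Veh over NR and RA to NRRA. The log2 fold change was -1.11 ± 0.053 in RA and -1.80 ± 0.054 in NRRA (adjusted p = 3.8e-15 and 4.8e-20). In NR it was -0.19 ± 0.051 (adjusted p = 0.0028), and this call was lost without Veh replicate 1 (-0.10) or NR replicate 1 (-0.13).

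*Shmt2* (ENSMUSG00000025403, chr10:127517123-127522444), the mitochondrial enzyme that passes the side carbon of serine to folate, stood at 207 and 186 CPM in the Veh libraries, 122 and 111 with RA, 137 and 142 with NR and 94.9 and 96.0 with NRRA. Veh libraries were the highest and NRRA libraries the lowest, with RA below NR. It fell, at -0.76 ± 0.054 with RA, -0.50 ± 0.053 with NR and -1.04 ± 0.054 with NRRA (adjusted p = 1.2e-11, 1.9e-08 and 5e-15). *Psat1*, which acts after *Phgdh*, fell in NR, at -0.59 ± 0.054 and in NRRA, at -0.58 ± 0.053, with 104 and 95.3 CPM in Veh, 66.3 and 66.4 with NR and 66.6 and 67.0 with NRRA. *Mthfd1l*, which releases formate from the mitochondrial folate cycle, fell in NR, at -0.53 ± 0.080 and in NRRA, at -0.60 ± 0.078. In RA, *Psat1* (-0.15 ± 0.052) and *Mthfd1l* (-0.22 ± 0.078) passed, but each call was lost in 5 of 8 fits that left out 1 library, among them those without Veh replicate 1 (-0.057 and -0.20). Both RA calls were also lost with DESeq2.

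*Mthfd2*, the folate dehydrogenase of mitochondria that is high in dividing cells, differed by -0.26 ± 0.068 with RA, -0.22 ± 0.068 with NR and -0.22 ± 0.066 with NRRA. It passed in each, but in none of the 3 without Veh replicate 1, where the values were -0.13, -0.10 and -0.11. The NR call was also lost without NR replicate 2 (-0.14) and the NRRA call without NRRA replicate 2 (-0.20). *Psph*, the last enzyme of serine synthesis, passed in none of the 6 tests, with 30.6 to 33.7 CPM in all libraries. Other genes overlap 10.4% of its exon bases, the largest overlap being with *Cct6a* on the opposite strand.

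*Aldh1l2* (ENSMUSG00000020256, chr10:83487450-83534140), a mitochondrial folate oxidizing enzyme, was the exception within its group. It stood at 9.56 and 10.5 CPM in the Veh libraries, 9.23 and 9.09 with RA, 23.1 and 22.4 with NR and 17.3 and 17.7 with NRRA, with both restricted groups above every library of complete medium. The rise was 1.18 ± 0.092 in NR and 0.80 ± 0.092 in NRRA (adjusted p = 4.5e-11 and 3.4e-08), and NRRA against NR gave -0.38 ± 0.078. Of its exon bases, 14.1% overlap other genes, the largest overlap being with *D10Wsu102e* on the opposite strand.

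Of the 5 asparagine, proline and cysteine enzymes, *Pycr1* (ENSMUSG00000025140, chr11:120635712-120643769), which completes proline synthesis in mitochondria, rose with nutrient restriction. It stood at 6.44 and 6.31 CPM in the Veh libraries, 6.01 and 5.90 with RA, 15.5 and 13.6 with NR and 12.8 and 13.4 with NRRA, again with no overlap between restricted and complete medium. The rise was 1.18 ± 0.11 in NR and 1.04 ± 0.11 in NRRA (adjusted p = 2.7e-09 and 1e-08), while RA gave -0.10 ± 0.13. Both *Pycr1* and *Aldh1l2* rose in libraries where the fibroblast markers also summed higher (38136 and 39837 CPM in NR against 22374 and 22833 in Veh), and the part of those cells in these rises was not tested. *Aldh18a1*, the enzyme that starts proline synthesis from glutamate, differed by 0.11 ± 0.051 in NR (adjusted p = 0.074) and fell, at -0.27 ± 0.052 in RA.

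*Asns*, asparagine synthetase and the classical reporter of the amino acid response, did not rise under nutrient restriction. It stood at 60.9 and 60.2 CPM in the Veh libraries, 63.3 and 63.2 with RA, 55.2 and 54.8 with NR and 62.8 and 63.9 with NRRA, and both NR libraries were the lowest. The NR difference of -0.14 ± 0.055 (adjusted p = 0.041) was lost in 6 of 8 fits without 1 library, those without a Veh, NR or NRRA library, with values of -0.14 to -0.11, and with DESeq2. The 95% interval of that difference, -0.25 to -0.027, lies below 0. RA raised *Asns* within the restricted medium by 0.21 ± 0.053 (adjusted p = 0.0024). *Cth* and *Cbs*, the enzymes that make cysteine from homocysteine, passed in none of the 6 tests. They were the weakest-measured of the group, with 4.01 to 5.22 CPM for *Cth* and at most 81 reads in a library for *Cbs*, and the 95% interval of *Cbs* in NR ran from -0.71 to 0.41.

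RA lowered 8 of the 9 amino acid transporters and raised none, while NR lowered 5 and raised 4 and NRRA lowered 5 and raised 2. The shares lower were 88.9%, 55.6% and 55.6%, against 23.4%, 22.2% and 28.7% of all tested genes, and the shares higher 0%, 44.4% and 22.2%, against 19.8%, 21.7% and 30.1%. *Slc7a11* (ENSMUSG00000027737, chr3:49892526-50443614), the light chain of the cystine-glutamate antiporter, had the largest log2 change of any member in NR and in NRRA against Veh. It stood at 40.5 and 46.7 CPM in the Veh libraries, 23.6 and 22.6 with RA, 11.4 and 12.3 with NR and 9.43 and 8.93 with NRRA, with no overlap between the groups. It fell, at -0.92 ± 0.077 with RA, -1.87 ± 0.086 with NR and -2.25 ± 0.086 with NRRA (adjusted p = 2.9e-10, 7e-16 and 7.4e-18). Its promoter window is the one with 2 matches printed above.

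*Slc7a5* (ENSMUSG00000040010, chr8:121881150-121907694), the LAT1 light chain that imports leucine and other large neutral amino acids, stood at 393 and 340.2 CPM in the Veh libraries, 144 and 143 with RA, 297 and 296 with NR and 143 and 139.8 with NRRA. All libraries with RA lay between 139.8 and 144.0 CPM, whichever the medium. The fall was -1.35 ± 0.052 in RA and -1.37 ± 0.051 in NRRA (adjusted p = 3.9e-17 and 4.3e-18), against -0.31 ± 0.050 in NR, which was -0.18 without Veh replicate 1 and still passed. *Slc3a2*, the heavy chain that LAT1 and the cystine antiporter share, moved alongside with -0.80 ± 0.049 with RA, -0.30 ± 0.048 with NR and -0.85 ± 0.048 with NRRA. Its levels with RA were 116 and 120.0 CPM in complete medium and 115 and 114 in restricted medium, against 216 and 196 in Veh. These were the light and heavy chains of LAT1, and both fell with RA in either medium.

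*Slc1a4*, which carries serine and alanine, and *Slc6a9*, a glycine transporter, moved with the medium and against RA. *Slc1a4* stood at 22.7 and 20.9 CPM in the Veh libraries, 15.8 and 13.6 with RA, 33.0 and 31.9 with NR and 24.3 and 27.5 with NRRA. It fell, at -0.58 ± 0.093 in RA and rose by 0.57 ± 0.082 in NR. In NRRA its 0.25 ± 0.083 passed, but not without Veh replicate 2 (0.19) or NRRA replicate 2 (0.15), nor with DESeq2. *Slc6a9* fell, at -0.32 ± 0.073 in RA and rose by 0.45 ± 0.068 in NR. Other genes overlap 30.2% of its exon bases, the largest overlap being with *Ccdc24* on the opposite strand. *Slc38a2* (SNAT2), the neutral amino acid carrier that cells raise on starvation, fell, at -0.27 ± 0.047 in RA and passed in NR at 0.16 ± 0.046, but the NR value turned to -0.030 once a trend on GC content and gene length was removed. In NRRA its 0.14 ± 0.046 passed as well, turned to -0.15 with that trend removed, and was lost without Veh replicate 1 (0.077) or NRRA replicate 2 (0.12). This NRRA call was also lost with DESeq2. NRRA against RA gave 0.40 ± 0.046.

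The other transporters changed less. *Slc7a1*, the main importer of arginine and lysine, fell, at -0.23 ± 0.047 in RA. Its NR value of -0.13 ± 0.047 was lost without any 1 of the 4 Veh and NR libraries (-0.13 to -0.095), and with DESeq2. Its NRRA value of -0.13 ± 0.046 was lost without NRRA replicate 1 (-0.15) or replicate 2 (-0.12). *Slc1a5*, the glutamine carrier ASCT2, passed at -0.24 ± 0.072 with RA, -0.19 ± 0.072 with NR and -0.21 ± 0.070 with NRRA, each lost without Veh replicate 1 (-0.19, -0.14 and -0.17). RA replicate 2 (-0.23), NR replicates 1 and 2 (-0.14 and -0.22) and NRRA replicate 2 (-0.13) each also decided the call of their own group. With DESeq2 the NR call of *Slc1a5* was lost as well. *Slc7a3*, a cationic amino acid transporter at 2.38 and 2.03 CPM in Veh, passed in NR (0.55 ± 0.20), and the call was lost without Veh replicate 2 (0.46) or NR replicate 1 (0.46) and with DESeq2.

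**Figure D4:**
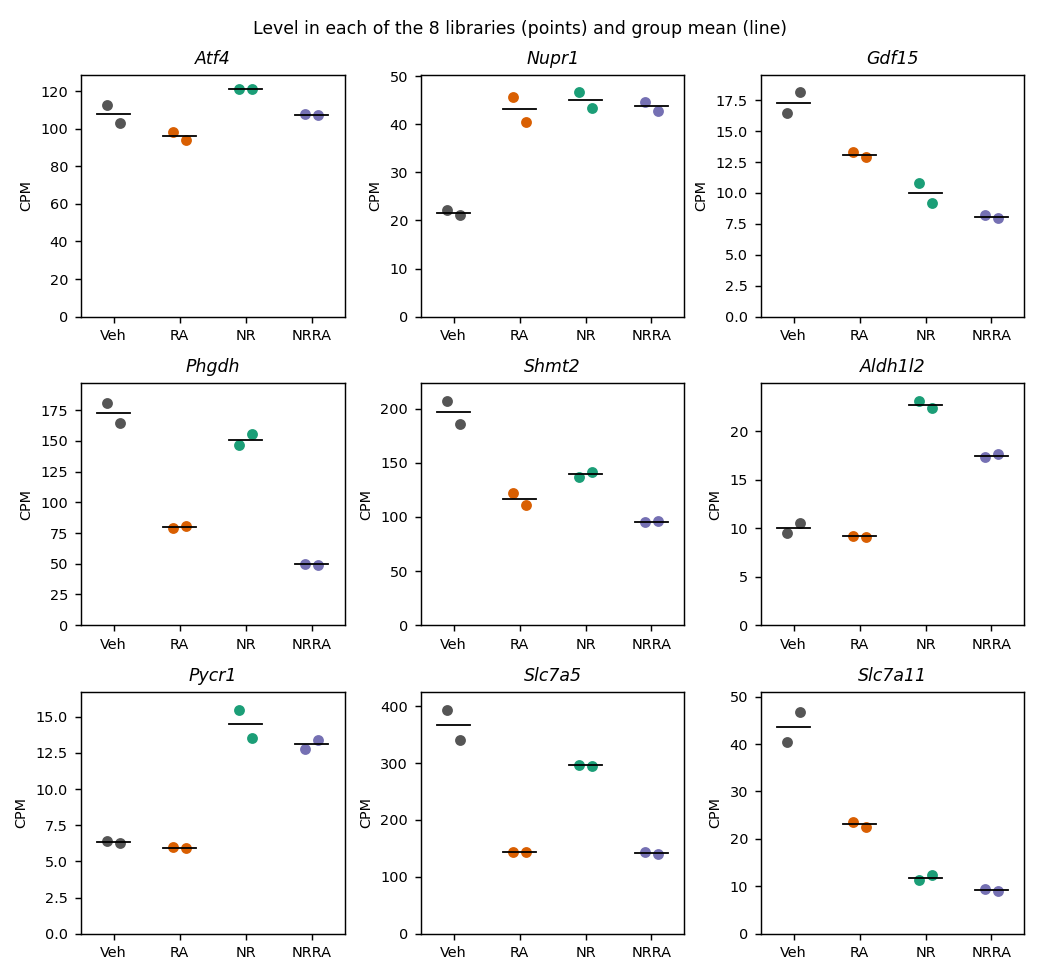
Level in CPM of Atf4 and of the 8 members that changed at least 2-fold against Veh, with 1 point per library, a line at the group mean and axes from 0. Slc7a5 sat between 139.8 and 144.0 CPM in all 4 libraries with RA, Nupr1 was higher in all treated libraries than in Veh, and Pycr1 and Aldh1l2 were higher in restricted than in complete medium.

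Secreted and surface products went both ways. *Gdf15* (ENSMUSG00000038508, chr8:70629393-70632456), a stress-induced hormone of the TGF-beta family, stood at 16.4 and 18.1 CPM in the Veh libraries, 13.3 and 12.9 with RA, 10.8 and 9.23 with NR and 8.18 and 7.96 with NRRA. The groups did not overlap and fell in that order. The fall was -0.40 ± 0.10 with RA, -0.80 ± 0.10 with NR and -1.10 ± 0.10 with NRRA (adjusted p = 0.0014, 3.8e-07 and 6.1e-10). *Stc2*, a secreted glycoprotein at 2.43 and 1.93 CPM in Veh, rose by 0.84 ± 0.20 in NR (adjusted p = 0.0011) and differed by 0.46 ± 0.20 in NRRA (adjusted p = 0.051). *Vldlr*, a lipoprotein receptor, passed in NR at -0.33 ± 0.10, but was only -0.14 without NR replicate 2, where the call was lost. *Xpot*, which exports tRNA from the nucleus, fell, at -0.30 ± 0.044 in NRRA. In RA its value was -0.13 ± 0.044, and this call was lost without Veh replicate 1, either RA library or either NR library, with values of -0.13 to -0.097.

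Each treatment was also measured in the other state, so that its effect could be read in libraries that share no sample. Nutrient restriction in the presence of RA, NRRA against RA, raised 9 members (23.7%) and lowered 10 (26.3%), against 20.9% and 19.4% of all tested genes. At 2-fold it gave 1 member in each direction, *Pycr1* at 1.14 ± 0.11 and *Slc7a11* at -1.33 ± 0.091, while 4.61% of all tested genes were higher and 3.68% lower. Of the 13 members raised by restriction without RA, 8 were raised again with it, which is 61.5% of the former list and 88.9% of the latter. They were *Aldh1l2*, *Atf4*, *Atf5*, *Ddit3*, *Pycr1*, *Slc1a4*, *Slc38a2* and *Slc6a9*, of which *Slc38a2* in NR did not keep its direction with the GC and length trend removed. Of the 15 lowered, 8 were lowered again (53.3% and 80%), namely *Ddit4*, *Eif4ebp1*, *Gdf15*, *Mthfd1l*, *Phgdh*, *Psat1*, *Shmt2* and *Slc7a11*, and none passed in opposite directions. Among all tested genes the shares were 60.4% and 62.6% for genes raised, and 62.4% and 71.3% for genes lowered. Across the 38 members, which are not independent replicates, the log2 values of both comparisons had a Pearson r of 0.78 and a Spearman rho of 0.64, against 0.67 and 0.59 over all tested genes.

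RA within restricted medium, NRRA against NR, lowered 18 members (47.4%) and raised 3 (7.89%), *Asns*, *Ddit3* and *Vldlr*, against 22.1% and 21.3% of all tested genes. At 2-fold, *Phgdh* and *Slc7a5* fell and 0 members rose, while 4.14% of all tested genes were lower and 4.56% higher. Of the 20 members lowered by RA in complete medium, 14 were lowered again in restricted medium, 70.0% of the former list and 77.8% of the latter. They held *Slc7a5*, *Slc3a2*, *Slc7a11*, *Slc1a4* and *Slc6a9* among the transporters, *Phgdh*, *Shmt2* and *Aldh18a1* among the enzymes, and *Atf4* and *Cebpb* among the factors. The remaining 4 were *Ddit4*, *Gdf15*, *Ppp1r15a* and *Xpot*. Over all tested genes the shares were 65.5% and 69.2%. None of the 2 members raised by RA in complete medium, *Nupr1* and *Atf3*, passed again in restricted medium, while among all tested genes 63.6% of those raised in complete medium and 59.1% of those raised in restricted medium were shared. Across the 38 members the Pearson r was 0.60 and the Spearman rho 0.46, against 0.69 and 0.62 over all tested genes. Without NR replicate 2, 1 member instead of 3 was higher, and scaling by library totals gave 5 higher and 16 lower.

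**Figure D5:**
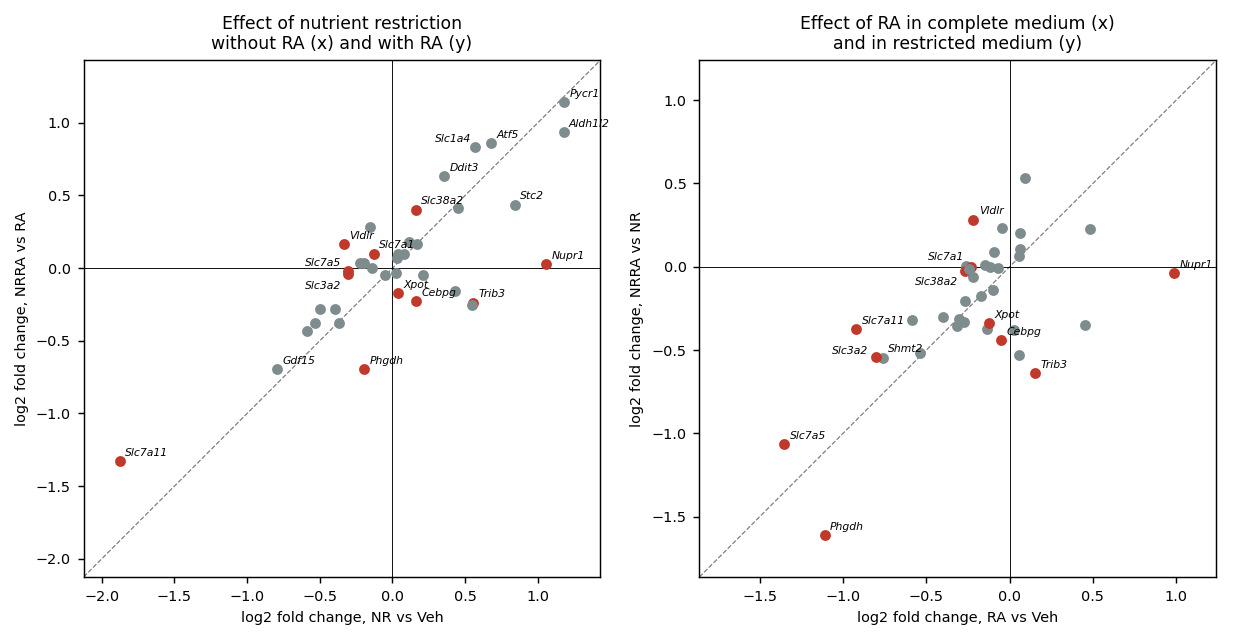
Log2 fold changes of the 38 tested members for nutrient restriction without RA (x) and with RA (y) on the left, and for RA in complete (x) and in restricted medium (y) on the right, each pair free of shared libraries. Red points passed the test of interaction and the dashed line marks equal effects. Nupr1 lies far from that line, at 0.99 on the x axis and -0.040 on the y axis of the right panel.

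The interaction of RA and NR, the log2 effect of RA in restricted medium minus that in complete medium, passed for 11 members, 6 above 0 (15.8%) and 5 below (13.2%), against 6.37% and 6.58% of all tested genes. At 2-fold, 0 members were above and 1 below, with 0.786% and 1.46% of all tested genes. The largest was *Nupr1* at -1.03 ± 0.10 (adjusted p = 2.7e-08), which rose with either treatment, while RA in restricted medium gave -0.040 ± 0.065. *Trib3* followed at -0.79 ± 0.17 (adjusted p = 0.0018), with 0.15 ± 0.13 for RA in complete medium and -0.64 ± 0.11 in restricted medium. *Phgdh* had -0.50 ± 0.076 (adjusted p = 3e-05), with -1.61 ± 0.054 for RA in restricted and -1.11 ± 0.053 in complete medium. *Slc7a11* had 0.55 ± 0.13 (adjusted p = 0.0043), with a smaller fall from RA once restriction had lowered it, and this call was lost without NR replicate 1 (0.46). The other 7 calls were each lost without at least 1 library, and those of *Slc7a1* and *Vldlr* also with DESeq2. The call of *Cebpg* (-0.39 ± 0.10) was lost without RA replicate 2 or NRRA replicate 2 (-0.35 each), and that of *Vldlr* (0.50 ± 0.13) without RA replicate 2 (0.40) or NR replicate 2 (0.29). *Slc7a5* (0.28 ± 0.072) lost it without Veh replicate 1 (0.14) or either NR library (0.25 each), and *Slc3a2* (0.26 ± 0.069) without Veh replicate 1 (0.15), RA replicate 1, either NR library or NRRA replicate 1 (0.22 to 0.26). *Slc38a2* (0.24 ± 0.065) lost it without Veh replicate 2 (0.15), RA replicate 2, either NR library or NRRA replicate 2 (0.20 to 0.23), *Slc7a1* (0.23 ± 0.066) without any 1 of the 6 treated libraries (0.18 to 0.25), and *Xpot* (-0.21 ± 0.062) without either RA library, NR replicate 2 or either NRRA library (-0.22 to -0.20). The 6 calls above 0 fell to 1 without NR replicate 1 or 2 and to 3 without RA replicate 2, and the 5 below 0 to 3 without RA replicate 2 or NRRA replicate 2.

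Members with and without the promoter letters were called as follows. In NR against Veh, the 9 tested members with a match gave 5 higher and 3 lower, and the 23 tested members whose window had none gave 6 higher and 9 lower. In RA against Veh the same groups gave 2 higher and 2 lower, and 0 higher and 16 lower. Of all tested genes, 21.7% were higher and 22.2% lower in NR, and 19.8% and 23.4% in RA.

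Compared per kilobase of exon, the Veh levels of the members ran from 107 CPM per kb for *Cebpb* and 98.8 for *Slc7a5*, over 69.5 for *Phgdh*, 63.3 for *Shmt2* and 58.4 for *Slc3a2*, to 0.42 for *Stc2* and 0.23 for *Cbs*. *Atf4* was at 45.7 CPM per kb, and *Asns* at 22.2. Of the members that rose at least 2-fold in NR, *Nupr1* stood at 8.58 CPM per kb in Veh, near the middle of the order, and *Pycr1* and *Aldh1l2* stood low in it, at 1.62 and 1.34.

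Genes that act before or beside ATF4 were counted in lists of their own, to be read against 21.7% of all tested genes higher and 22.2% lower in NR, and 19.8% and 23.4% in RA. A list of eIF2 kinases and eIF2 or eIF2B subunits also held *Gcn1*, *Impact* and *Ppp1r15b*, which are none of these. Of its 15 tested genes, NR raised 2, *Eif2ak2* and *Impact*, and lowered 6 (13.3% and 40%). The largest change was that of *Eif2ak2* (PKR), a kinase activated by double-stranded RNA, at 0.70 ± 0.060. RA raised 3, *Ppp1r15b* among them, and lowered 5, *Gcn1* among them (20% and 33.3%), with *Eif2ak4* (GCN2) largest at 0.46 ± 0.061. Of 22 genes of amino acid sensing by mTORC1, NR raised 6 and lowered 6 (27.3% each), and RA raised 8 and lowered 7 (36.4% and 31.8%). Their largest change was that of the Rag GTPase *Rragd*, at 0.62 ± 0.050 in NR and -2.67 ± 0.064 in RA. Of 20 other amino acid transporters, NR raised 6 and lowered 7 (30% and 35%) and RA raised 3 and lowered 9 (15% and 45%), led by the glutamate carrier *Slc1a3* in NR (2.85 ± 0.17) and the glutamine carrier *Slc38a3* in RA (1.38 ± 0.22).

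Further enzymes of amino acid metabolism were counted in the same way. Of 19 further enzymes of glutamine, aspartate and proline metabolism, 13 fell and 2 rose in NR (68.4% and 10.5%, against 22.2% and 21.7% of all tested genes), with a median log2 fold change of -0.34 and the largest change in *Ass1*, argininosuccinate synthase, at -1.52 ± 0.038. RA raised 4 and lowered 7 of them (21.1% and 36.8%, against 19.8% and 23.4%), with *Arg1*, an arginase, at 3.01 ± 0.12. Of 18 further serine, glycine, folate and methionine enzymes, NR raised 4 and lowered 7 (22.2% and 38.9%), with *Mthfd1* largest at -0.67 ± 0.056, and RA raised 1 and lowered 6 (5.56% and 33.3%), with *Mthfd2l* largest at -0.45 ± 0.12. Of 17 chaperones and factors of the unfolded protein response, which shares ATF4 through the kinase PERK, NR raised 6 and lowered 3 (35.3% and 17.6%), with *Herpud1* at 0.55 ± 0.073, and RA raised 2 and lowered 9 (11.8% and 52.9%), with *Xbp1* at -0.43 ± 0.059.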

How the data were processed

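Libraries were made from cultures of mouse spermatogonia on feeder cells, in 4 groups of 2, and groups were taken from the sample titles. The authors deposited one table of raw counts, whole numbers of reads per gene and library. Per the labels, bcl2fastq, STAR 2.6.1c, featureCounts 1.6.4 and mm10 were used, while the study's reporting summary names another STAR version. The libraries were stranded, but the strand setting in counting and the annotation release are not given in the sources used here, so counts of overlapping genes are uncertain. All 8 columns were matched to a library.

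Counts were filtered with filterByExpr, scaled by TMM and fitted with edgeR 4.0.16 in R 4.3.3 (quasi-likelihood, 1 coefficient per group, all 8 libraries), with Benjamini-Hochberg adjustment over 20477 genes in each comparison. The SE is the log2 fold change divided by the square root of F. P-values rest on a spread between replicates pooled over all 4 groups, with 4 residual degrees of freedom, not only on the 2 groups compared. The quasi-likelihood fit also moved each gene's spread toward a trend over the tested genes. The tests and intervals therefore used more than 4 degrees of freedom, with the rest borrowed from other genes. Very small p-values were thus not measured from the 2 libraries per group alone. Replicates differed by more than sampling noise. Counted per gene, chi-square was largest for the Veh pair (3.93), then for RA (2.12), NRRA (1.73) and NR (1.58). In comparisons with Veh, the Veh pair was therefore judged by a spread pooled with those of less noisy groups. On simulated data for NR vs Veh with 200 changed genes, edgeR found 86 of 100 genes changed 1.5-fold and 98 of 100 changed 2-fold, with 5 false calls. The simulation gave all groups the same spread, taken from the trend over genes, and so lacked the extra noise of the Veh pair. It also changed far fewer genes than were called in NR vs Veh here. Its rates therefore do not measure the errors in these data. Alternatives were DESeq2 1.42.0, RLE, upper quartile and library-total scaling, no filter, a CPM of at least 1 in 2 libraries, a replicate block, only the groups compared, removal of a loess trend on GC content and length, a 2-fold minimum and each library left out. Coordinates, exon lengths and overlaps come from GENCODE M21 on GRCm38, and promoter windows from RefSeq on GRCm38.p6. Members *Aldh1l2*, *Slc7a5*, *Eif4ebp1*, *Cth*, *Slc7a3* and *Slc1a5* have no window there. Figures were drawn in matplotlib 3.10.9.

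Members and lists were chosen with earlier results of these data known. *Atf4* and members passing with at least 2-fold against Veh are given in all libraries, other members by single values or ranges, and each other list by its counts and its called gene of largest change in NR and in RA.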

Additional observations from a re-analysis of the deposited data

Results flagged for a closer look

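For 11 members the effect of RA differed between restricted and complete medium by the test of that difference, edgeR's quasi-likelihood test of the interaction with an adjusted p under 0.05. The differences, NRRA vs NR minus RA vs Veh on the log2 scale, were -1.03 for *Nupr1*, -0.79 for *Trib3*, -0.50 for *Phgdh*, -0.39 for *Cebpg* and -0.21 for *Xpot*. They were 0.55 for *Slc7a11*, 0.50 for *Vldlr*, 0.28 for *Slc7a5*, 0.26 for *Slc3a2*, 0.24 for *Slc38a2* and 0.23 for *Slc7a1*. *Nupr1*, *Trib3* and *Phgdh* kept their call in every fit that left out 1 library. Each of the other 8 lost it in at least 1 of those fits. The groups of 2 libraries were too small for a search for single outlying samples.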

How the results depend on the processing

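Apart from the fits that left out 1 library, 4 alternatives moved the counts of passing members by over 1.5 times in at least 1 direction. Counts are given as higher and lower. Fits that left out 1 library also moved some counts by that much, within the ranges given below. DESeq2 gave 1 higher in RA vs Veh, 5 in NRRA vs Veh and 1 in NRRA vs NR. Library totals gave 4 higher in RA vs Veh and 5 in NRRA vs NR, and a GC and length trend removed gave 5 higher in NRRA vs NR. A required fold of at least 2 gave 0 and 2 in RA vs Veh, 3 and 1 in NR vs Veh, 2 and 5 in NRRA vs Veh, 1 and 1 in NRRA vs RA, 0 and 2 in NRRA vs NR, and 0 and 1 in the interaction. The cause of the first 3 shifts was not tested. Leaving out 1 library at a time gave 1 to 2 and 14 to 21 in RA vs Veh, 11 to 14 and 10 to 15 in NR vs Veh, 6 to 8 and 14 to 17 in NRRA vs Veh, 7 to 9 and 9 to 10 in NRRA vs RA, 1 to 3 and 15 to 18 in NRRA vs NR, and 1 to 9 and 3 to 6 in the interaction. Of 1451 repeats of 86 named values, 1310 kept their direction and side of the threshold, 139 lost the call and 2 reversed. The reversals were *Slc38a2* in NR vs Veh (-0.030, adjusted p = 0.52) and NRRA vs Veh (-0.15, adjusted p = 0.00033) with the GC and length trend removed. With a replicate block, none of the 86 changed its call, and NRRA vs Veh gave 9 and 17 in place of 8 and 17. Same-numbered libraries had correlations of -0.093 to 0.14 in their deviations from group means over 12624 genes, so the numbers were not shown to pair samples. With 2 libraries per group and a biological coefficient of variation of 3.35%, the 6 tested members under 5 CPM in Veh had SEs of 0.15 to 0.27 against Veh, so changes of that size could not be told from 0 in them.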
